A study of Rattus norvegicus with 6 samples.

Results

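Integrin and laminin genes were followed in RNA that the study describes as taken from the hearts of diabetic rats. The members were chosen by gene symbol alone: integrin alpha chains (Itga with a number or a single letter), integrin beta chains (Itgb with a number) and laminin chains (Lama, Lamb or Lamc with a number). Of 18166 genes measured by a probe set of 1 symbol, 31 were members, 15 of them integrin alpha chains, 7 integrin beta chains and 9 laminin chains. Each gene was read from its brightest probe set, and Itgav, Itgae, Itgb3 and Lamb1 were not analysed here.

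Each group, Hlirag and diabetic, had 3 arrays. Male Sprague–Dawley rats entered the experiment at 5 weeks of age, ate a high-fat diet for 4 weeks and were then given streptozotocin (30 mg/kg), which kills the beta cells of the pancreas. The diabetic group then received saline. The Hlirag group received liraglutide, which activates the receptor of the gut hormone GLP-1, at 0.4 mg/kg/day for 12 weeks. The labels give an age of 17 weeks and heart muscle as the tissue, while their titles carry the word arota and their free text speaks of fat tissue of an unrelated experiment. That age is lower than the start age, the diet and the treatment add up to, and the sources used here do not settle the difference. The comparison asks which genes liraglutide treatment moved in diabetic rats. Whether the arrays stand for different rats is not given in the sources used here. The p-values therefore speak only to the spread among these arrays, and that spread may be technical.

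Laminins are the long cross-shaped proteins that lay the mesh of basement membranes, and each is built of an alpha, a beta and a gamma chain. Integrins are receptors of an alpha and a beta chain that sit in the cell membrane and tie such matrix proteins to the cytoskeleton inside the cell. In heart and vessel wall, muscle cells, fat cells, Schwann cells and the endothelium all rest on laminin, while white blood cells carry integrins of their own for adhesion and migration.

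The labelled tissue was checked against marker genes. The cardiomyocyte gene Myh6 was 7.88 on Hlirag replicate 1 and 9.16 on diabetic replicate 1, but 3.76 to 4.19 on the other 4 arrays, and the median level of 10 cardiomyocyte markers was under the background level on those 4 arrays as well. Background was set at 5.60 on the log2 scale, the 95th percentile of the means of 67 olfactory receptor genes. Not every cardiomyocyte marker was low on those 4 arrays. There Pln was 7.18 to 10.13 and Nppb 6.03 to 7.03, and Myh7 was 11.03 on diabetic replicate 2. On that array Myh6 was 3.76, and the median of the skeletal muscle markers was 11.48. Nppa was under the background level on every array, at 4.45 to 4.89. What tissue the values of Pln, Nppb and Myh7 came from was not tested. White adipocyte markers had a median level of 11.28 to 11.54 in Hlirag and of 11.16 to 11.73 in diabetic. Of 7 brown adipocyte markers 3 were higher in Hlirag at the criterion, Ucp1, Cox8b and Cidea, against 1.62% of all genes. The log2 fold changes were 3.40 for Ucp1 and 0.72 for Cidea. The groups of both genes overlapped, and Ucp1 was 10.92 on diabetic replicate 1 and 10.75 on Hlirag replicate 1. Of the list 5 genes were above 0 and 2 below, Fabp3 (-0.94) and Ppargc1a (-0.10). The list median of 0.67 was the value of Elovl3, which was under the background level on every array. Smooth muscle markers had a median level of 7.94 to 10.09 and of 8.30 to 10.02. Skeletal muscle markers had a median level of 4.70 to 5.55 in Hlirag and of 9.88, 11.48 and 5.18 on diabetic replicates 1 to 3, and neuron markers one of 4.84 to 5.12 in Hlirag and of 7.61, 10.20 and 5.33 in diabetic. The spread of the genes on Hlirag replicate 3 was narrow, with an SD of 1.52, while the other 5 arrays had 1.84 to 1.98. In whole tissue, fewer cells of a type and less RNA per cell cannot be told apart.

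The upstream sequences of 4 members whose values are described below are shown first, because 1 of these genes met the study's criterion, a further pair shared 1 order over the arrays, and the fourth had the widest range. They are the 250 bases before the start of each gene, from RefSeq with the build GRCr8, 5′ to 3′ on the strand of the gene, and 24 of the 31 members had an entry. Capitals mark the GC box (GGGCGG), the TATAAA motif and the CArG box, the site of serum response factor, each searched on both strands.
Itga3, chr10:80518902-80519151, minus strand: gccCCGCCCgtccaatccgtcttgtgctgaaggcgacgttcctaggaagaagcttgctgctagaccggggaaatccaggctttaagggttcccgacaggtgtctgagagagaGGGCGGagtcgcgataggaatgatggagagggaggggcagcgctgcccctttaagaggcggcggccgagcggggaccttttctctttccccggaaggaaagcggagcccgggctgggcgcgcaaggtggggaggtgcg
Itga8, chr17:80410634-80410883, minus strand: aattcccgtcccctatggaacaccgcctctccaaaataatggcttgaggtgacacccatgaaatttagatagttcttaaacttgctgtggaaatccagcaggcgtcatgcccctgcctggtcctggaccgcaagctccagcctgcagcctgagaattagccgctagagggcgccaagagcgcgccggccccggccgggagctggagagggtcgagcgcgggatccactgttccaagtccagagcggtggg
Itga9, chr8:127185039-127185288, plus strand: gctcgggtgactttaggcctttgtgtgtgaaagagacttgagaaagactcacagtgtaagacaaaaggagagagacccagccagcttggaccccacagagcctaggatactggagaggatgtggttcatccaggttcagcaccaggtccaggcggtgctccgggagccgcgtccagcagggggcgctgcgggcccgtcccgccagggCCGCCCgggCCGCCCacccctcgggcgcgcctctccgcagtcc
Itgb6, chr3:65530334-65530583, minus strand: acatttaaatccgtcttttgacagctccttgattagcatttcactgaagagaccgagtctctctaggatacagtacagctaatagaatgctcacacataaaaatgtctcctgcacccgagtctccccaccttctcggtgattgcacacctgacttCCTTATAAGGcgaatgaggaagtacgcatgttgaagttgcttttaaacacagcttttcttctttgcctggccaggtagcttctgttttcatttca
The GC box was found in 12 of the 24 members, among them Itga3 and Itga9, and in 32.4% of all 27457 upstream windows. The TATAAA motif was found in 2 members, Itgb7 and Lama4, and in 13.1% of all windows. The CArG box was found in 2 members, Itgb6 and Lama2, and in 1.501% of all windows. None of these motifs was found in the window of Itga8. Itga8 and Itga9 shared their order over the arrays and differed in the GC box, with 0 and 2 copies. A match here is only a run of letters, and binding was not measured.

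Of the 31 members 2 met the study's criterion, and both were lower in Hlirag. The criterion is an unadjusted p under 0.05, here from limma, with a fold change over 1.5. Among all genes 3.78% met it, 1.62% higher and 2.16% lower in Hlirag. The methods' test, run gene by gene, called the same pair of members and 1.3% of all genes. Of the pair, Itgb4 was only just called by that test, with an unadjusted p of 0.0496. No member passed after adjustment over all genes, where the adjusted p of limma ran from 0.780 to 0.969 over the members, and neither did any other gene, while 752 genes (4.14%) had an unadjusted p under 0.05, 2 members among them. Of the calls 294 were higher and 393 lower, and 128 were higher and 383 lower when each array was centred on its median, a setting that put the median of all genes at -0.14. The members had a median log2 fold change (Hlirag minus diabetic) of -0.18, against 0.00 over all genes, with 22 below 0 and 9 above 0, where 49.8% of all genes lay below 0. The mean of 11 members lay under the background level, as did that of 47.4% of all genes. Among the 20 members with a mean above the background level the median was -0.24 and 85.0% were below 0, and among all 9549 genes above that level the median was -0.19 and 71.5% were below 0.

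**Figure D1:**
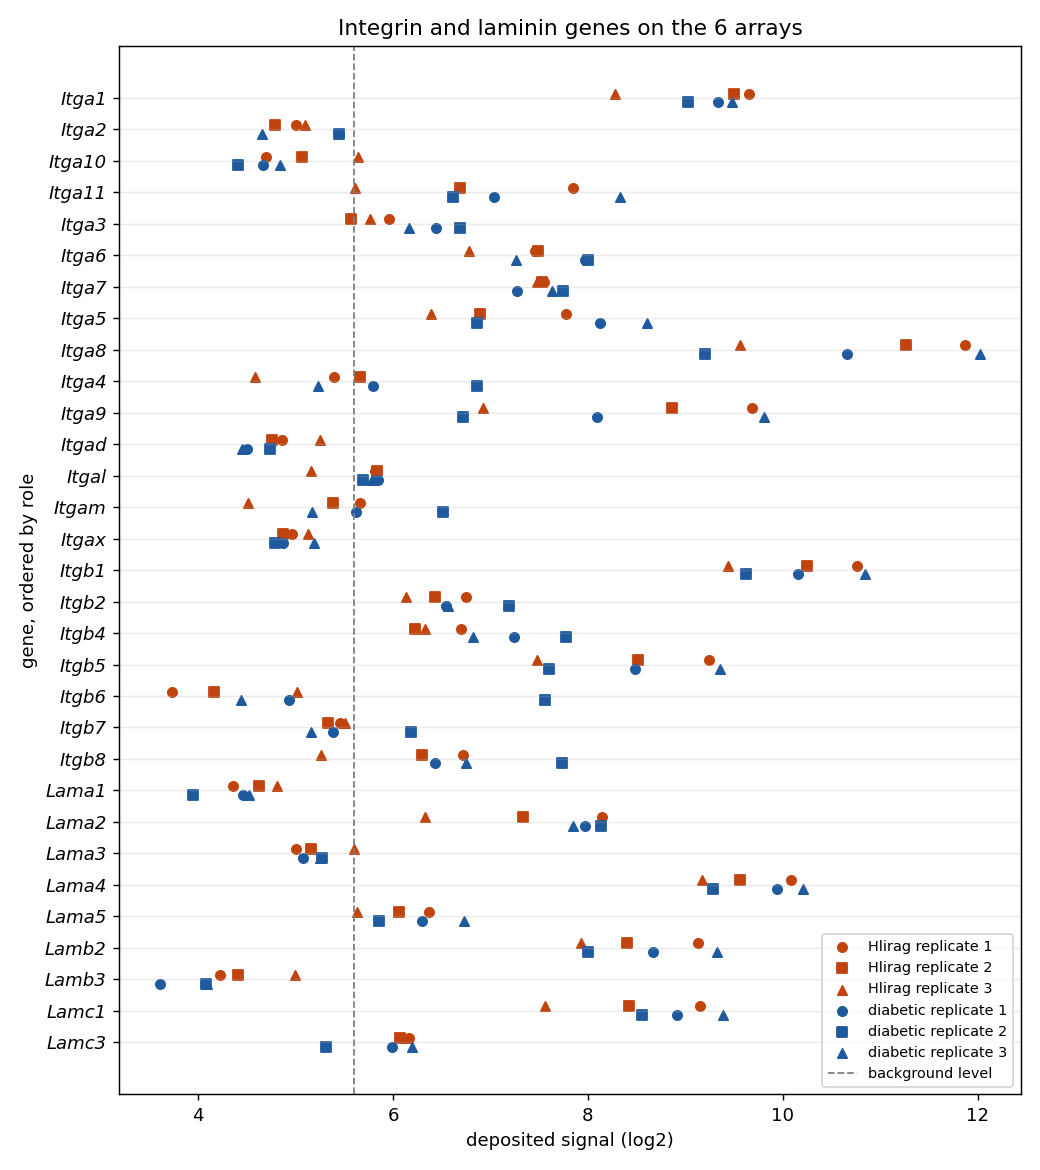
Deposited log2 signal (x axis) of each of the 31 integrin and laminin genes (rows, by role) on the 6 arrays, with Hlirag in red and diabetic in blue, replicates 1, 2 and 3 as circles, squares and triangles, and the background level of 5.60 as a dashed line. The groups of Itga3 and Itgb4 do not overlap, while Itga8 and Itga9 span 2.82 and 3.08 log2 units within the diabetic group.

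The laminin receptors held both calls. Itgb4, the beta chain that joins Itga6 in a laminin receptor of epithelia, Schwann cells and some endothelium, was, in the order of the replicates, 6.69, 6.22 and 6.33 in Hlirag and 7.24, 7.77 and 6.82 in diabetic. The groups did not overlap, and the gap between Hlirag replicate 1 and diabetic replicate 3 was the narrowest. Its log2 fold change was -0.86 (SE 0.30, 95% interval -1.56 to -0.17, n = 3 per group), a fold change of 1.82, with an unadjusted p of 0.0212 and an adjusted p of 0.780 in limma. Itga3, the alpha chain that pairs with Itgb1 to bind laminins rich in Lama3 or Lama5, was 5.95, 5.57 and 5.76 in Hlirag and 6.44, 6.68 and 6.17 in diabetic. The values again did not overlap, and 1 of them, on Hlirag replicate 2, was under the background level. Its log2 fold change was -0.67 (SE 0.24, 95% interval -1.22 to -0.12), a fold change of 1.59, with an unadjusted p of 0.0239 and an adjusted p of 0.780 in limma. Of all genes 11.1% had groups that did not overlap, 4.69% lower in Hlirag.

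Itgb4 and Itga3 ranked the 6 arrays in the same order, highest on diabetic replicate 2, then diabetic replicates 1 and 3, and lowest on Hlirag replicate 2. That order was shared by 46 genes (0.253%). Neither call held without Hlirag replicate 2, diabetic replicate 1, diabetic replicate 2, or Hlirag replicate 3 together with diabetic replicate 2. Without diabetic replicate 2 the log2 fold change was -0.61 for Itgb4 and -0.54 for Itga3, and without diabetic replicates 1 and 2, left out together once the data had been seen, it was -0.41 for each. Without diabetic replicate 1 the differences were about as large as with all arrays (-0.88 and -0.67), and without Hlirag replicate 2 they were -0.77 and -0.57, so there the call was lost with little change in size. Skeletal muscle and neuron markers were also highest on diabetic replicate 2, then on diabetic replicate 1. At the criterion 8 of 9 skeletal muscle markers were lower in Hlirag, with a median log2 fold change of -3.97, and 7 of 11 neuron markers, with one of -2.71. The part of either tissue in the result was not tested. Schwann cell markers had 1 of 8 lower at the criterion, Erbb3, and 7 of 8 below 0, with a median log2 fold change of -0.51. Of all genes 2.16% were called lower. Of all genes above the background level 71.5% were below 0, with a median of -0.19. The mean of 3 of the 8 Schwann cell markers lay under that level. The median level of the Schwann cell markers was 5.42 to 5.96 in Hlirag and 5.69 to 6.82 in diabetic. Their median deviations from their own means were -0.035, -0.24 and -0.39 in Hlirag and 0.22, 0.72 and 0.006 in diabetic. These too were highest on diabetic replicate 2, then on diabetic replicate 1, and the part of Schwann cells was not tested. Among epithelial and mesothelial markers 1 of 12, Cdh1, was lower at the criterion, against 2.16% of all genes. Of these markers 5 were below 0 and 7 above, with a median log2 fold change of 0.05. The mean of 6 of them lay under the background level, and Krt5 was not analysed here.

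**Figure D2:**
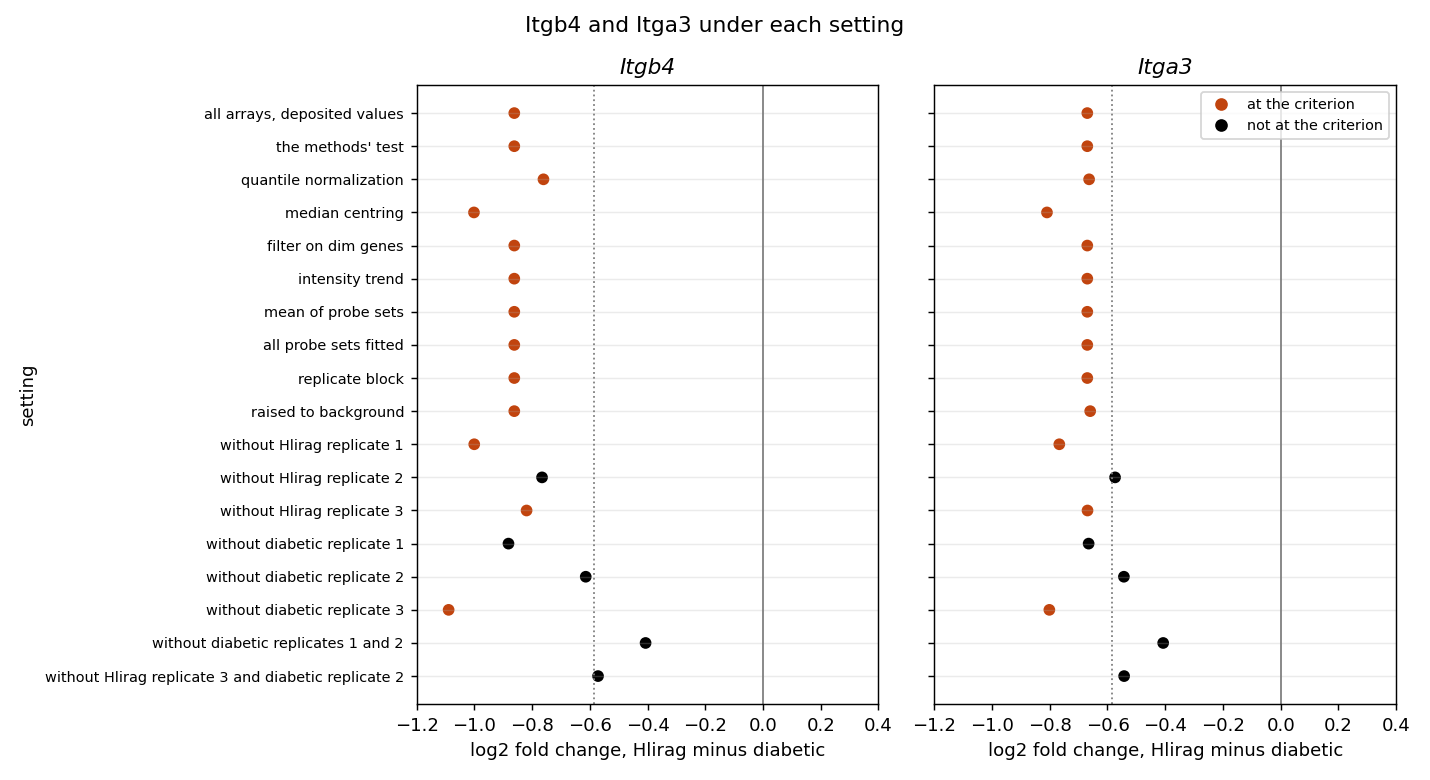
Log2 fold change of Itgb4 (left) and Itga3 (right), Hlirag minus diabetic, on the x axis under each setting (rows), in red where the study's criterion was met and in black where it was not, with a dotted line at a fold change of 1.5. Every value lies below 0, and the settings without Hlirag replicate 2, diabetic replicate 1 or diabetic replicate 2 are black for both genes.

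The other laminin-binding alpha chains did not meet the criterion. Itga6, the partner of both Itgb1 and Itgb4, was 7.45, 7.49 and 6.78 in Hlirag and 7.97, 8.004 and 7.26 in diabetic. The groups overlapped only through diabetic replicate 3, and the log2 fold change was -0.50 (SE 0.31, 95% interval -1.23 to 0.22). Itga7, the laminin receptor chain of striated and smooth muscle, lay between 7.27 and 7.75 on all arrays and between 7.48 and 7.55 in Hlirag, with a log2 fold change of -0.03 (95% interval -0.55 to 0.49).

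Among the other beta chains all log2 fold changes lay below 0, and none met the criterion. Itgb6, which activates latent TGF-beta together with Itgav and is known from epithelium, was 3.73, 4.17 and 5.01 in Hlirag and 4.93, 7.56 and 4.43 in diabetic. Only diabetic replicate 2 was above the background level. The size of the log2 fold change of -1.34 (SE 0.78) depended on that array. It was -0.38 without diabetic replicate 2, and -0.65 with values under the background level raised to it. Itgb8, another partner of Itgav in TGF-beta activation, was 6.72, 6.30 and 5.26 in Hlirag and 6.43, 7.73 and 6.75 in diabetic. It too was highest on diabetic replicate 2, and it was lowest on Hlirag replicate 3, with a log2 fold change of -0.88 (SE 0.47, 95% interval -1.96 to 0.21). Without Hlirag replicate 1 Itgb8 met the criterion at -1.19, and without diabetic replicate 3 Itgb6 did, at -1.94. Itgb6 also met it without Hlirag replicate 3 and diabetic replicate 2, where all its values left were under the background level.

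Itgb1, the common partner of most alpha chains, was 10.77, 10.24 and 9.43 in Hlirag and 10.15, 9.62 and 10.84 in diabetic. The groups overlapped over nearly their whole range, and the log2 fold change was -0.06 (95% interval -1.05 to 0.93). Itgb5, which binds vitronectin with Itgav, was 9.24, 8.52 and 7.48 in Hlirag and 8.48, 7.60 and 9.36 in diabetic, a log2 fold change of -0.07 (95% interval -1.36 to 1.23). Both were highest on diabetic replicate 3 and lowest on Hlirag replicate 3. Itgb1, Itgb5 and Itga6 were picked for a full account after their values were seen. Itgb2, the beta chain of white blood cells, ranged from 6.13 to 7.19 (log2 fold change -0.33), and Itgb7, its counterpart on gut-homing lymphocytes, from 5.16 to 6.18 (-0.15).

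**Figure D3:**
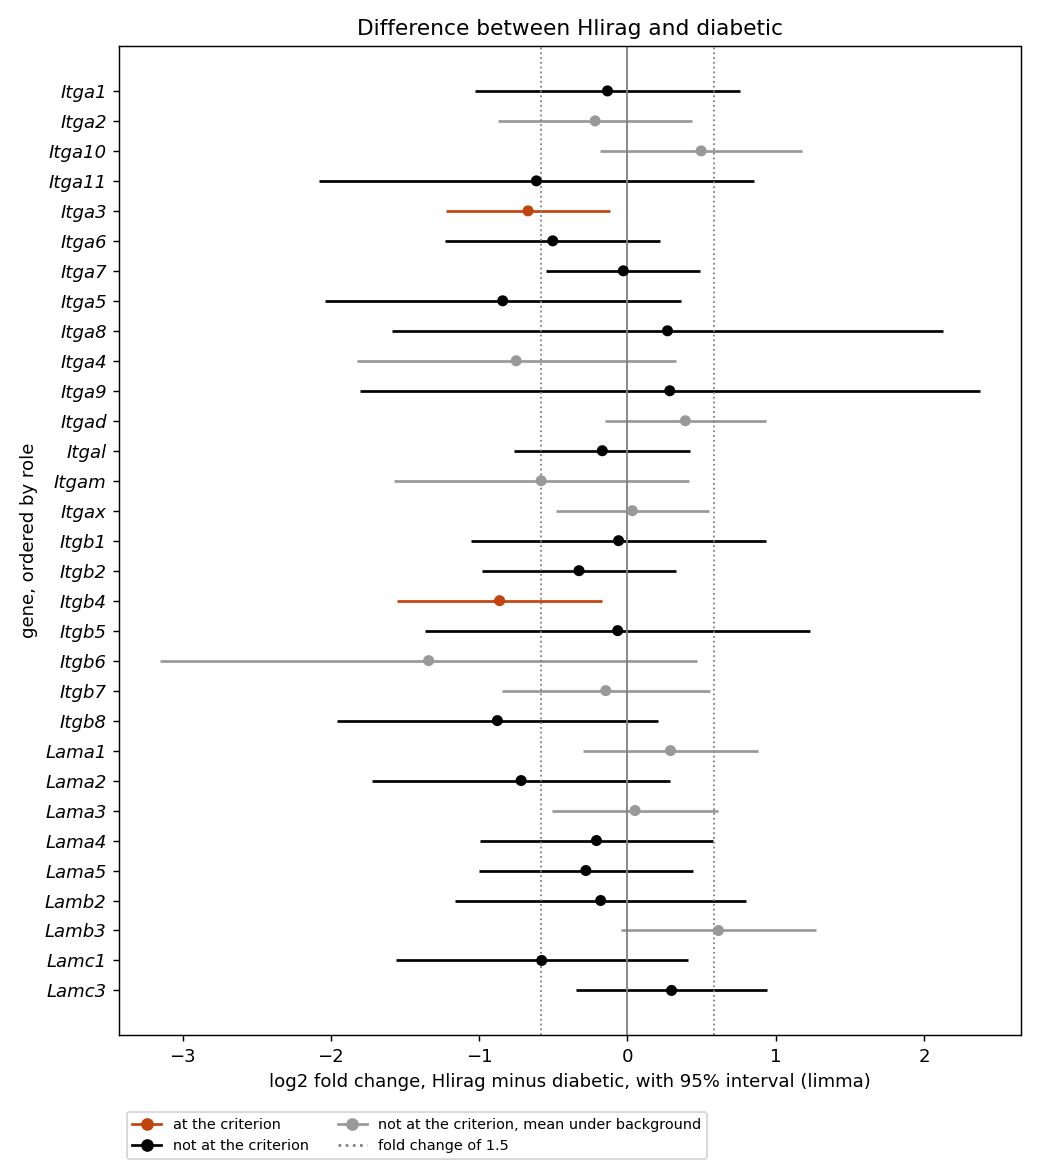
Log2 fold change, Hlirag minus diabetic, on the x axis with its 95% interval from limma for the 31 genes (rows, by role), in red at the study's criterion, in black otherwise and in grey otherwise with a mean under the background level, with dotted lines at a fold change of 1.5. Only the intervals of Itga3 and Itgb4 lie wholly on 1 side of 0, and Itga8, Itga9 and Itgb6 have the widest intervals.

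The alpha chains with the highest spread did not differ between the groups beyond that spread. Itga8, a receptor for proteins with the RGD motif that smooth muscle cells carry, was 11.87, 11.27 and 9.56 in Hlirag and 10.66, 9.20 and 12.02 in diabetic. Itga9, which pairs with Itgb1 and binds tenascin and osteopontin, was 9.69, 8.86 and 6.92 in Hlirag and 8.09, 6.72 and 9.80 in diabetic. Both were highest on diabetic replicate 3 and Hlirag replicate 1 and lowest on diabetic replicate 2 and Hlirag replicate 3, in 1 identical order that 52 genes (0.286%) shared. The log2 fold change was 0.27 for Itga8 (SE 0.80, 95% interval -1.59 to 2.13) and 0.29 for Itga9 (SE 0.90, 95% interval -1.80 to 2.38). Both turned below 0 without Hlirag replicate 1 (-0.22 and -0.31) or diabetic replicate 2 (-0.44 and -0.46).

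Itga11, a collagen receptor chain of fibroblasts, was 7.84, 6.69 and 5.60 in Hlirag and 7.04, 6.61 and 8.33 in diabetic, with a log2 fold change of -0.61 (SE 0.63). It followed the same high and low arrays. In all, 8 members (Itga8, Itga9, Itga11, Itgb1, Itgb5, Lama4, Lama5 and Lamb2) had Hlirag replicate 1 and diabetic replicate 3 as their highest pair of arrays and Hlirag replicate 3 and diabetic replicate 2 as their lowest pair. That is 40.0% of the 20 members above the background level, against 8.81% of all genes above it, a pattern chosen after the values were seen and given with no test. By their median the smooth muscle markers took a like course, with median deviations from their own means of 0.81, 0.26 and -1.09 in Hlirag and 0.28, -0.93 and 0.77 in diabetic. Not every one of them did, as Des was highest on diabetic replicate 2, at 11.43, and Synpo2 on diabetic replicate 1, at 10.33. The medians of the other integrin ligands took a like course too, with 0.48, 0.19 and -0.79 in Hlirag and 0.081, -0.51 and 0.39 in diabetic. So did those of the basement membrane partners, with 0.34, -0.029 and -0.58 and with 0.074, -0.32 and 0.30. The fibroblast markers had 0.63, -0.019 and -1.34 in Hlirag and 0.48, -0.14 and 0.32 in diabetic. They were lowest on the same pair of arrays, though only a little below 0 on diabetic replicate 2. Their highest pair was Hlirag replicate 1 and diabetic replicate 1. Whether the share of smooth muscle or of fibroblasts set these members' levels was not tested.

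**Figure D4:**
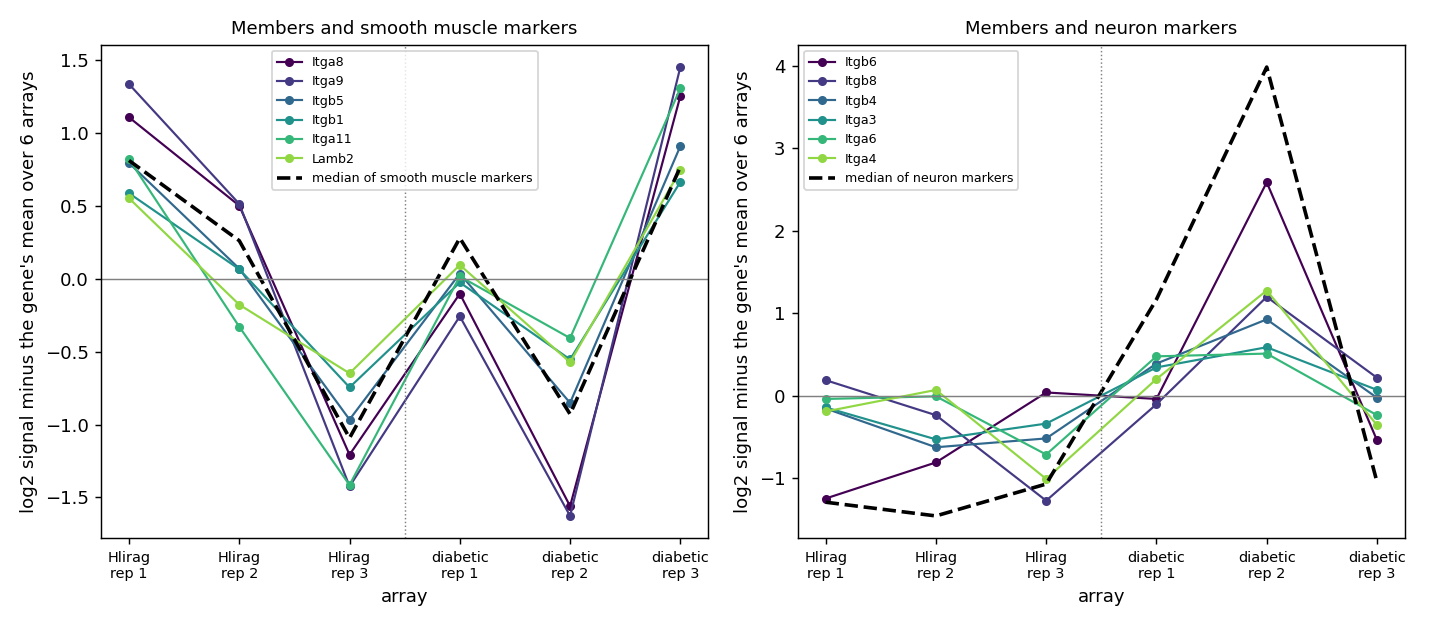
Log2 signal minus each gene's mean over the 6 arrays (y axis) by array (x axis), for 6 members with the median of the smooth muscle markers (left, dashed) and for 6 members with the median of the neuron markers (right, dashed). On the left the lines peak on Hlirag replicate 1 and diabetic replicate 3, and on the right they are highest on diabetic replicate 2, where the dashed line reaches 3.98. The members drawn were picked for these courses after their values were seen, and the other members are not shown.

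The remaining collagen-binding chains showed no call. Itga1, the chain of smooth muscle and capillary endothelium, ranged from 8.28 to 9.65, with its lowest value on Hlirag replicate 3 and a log2 fold change of -0.13 (95% interval -1.03 to 0.76). Itga10, a receptor chain of cartilage, was 4.70, 5.06 and 5.64 in Hlirag and 4.66, 4.41 and 4.84 in diabetic. Its values were under the background level except on Hlirag replicate 3, so the log2 fold change of 0.50 has no firm size: it was 0.72, at the criterion, without Hlirag replicate 1, and 0.014 with values raised to the background level. Itga2, known from platelets and epithelium, lay under the background level on every array. The fibronectin receptor chain Itga5 ranged from 6.39 to 8.60, with a log2 fold change of -0.84 (95% interval -2.04 to 0.36), and it met the criterion at -1.34 without diabetic replicate 2, at -1.03 without Hlirag replicate 3 and diabetic replicate 2, and at -1.58 without diabetic replicates 1 and 2.

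White blood cell integrins had no call. Itgad, an alpha chain of macrophages, was 4.86, 4.76 and 5.24 in Hlirag and 4.50, 4.74 and 4.45 in diabetic. All Hlirag values were above all diabetic values, as in 6.42% of all genes, but all 6 were under the background level, as were all values of Itgax, the alpha chain of dendritic cells. In the reference gene table Itgad carries the older name Itgax, and the arrays measured them by separate probe sets. Itgal, the alpha chain of lymphocytes that binds Icam1, ranged from 5.16 to 5.84, and Itgam, that of neutrophils and macrophages, from 4.51 to 6.51, highest on diabetic replicate 2. Itga4, which binds Vcam1, ranged from 4.58 to 6.86 (log2 fold change -0.75, SE 0.46) and was highest on the same array. Its mean was under the background level, and with values raised to that level the log2 fold change was -0.47. It met the criterion without diabetic replicate 3, at -1.11. Leukocyte markers had 0 of 17 genes at the criterion, with a median level of 5.94 to 7.43 in Hlirag and of 6.83 to 7.05 in diabetic.

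Of the 9 laminin chains none met the criterion. Lama2, the alpha chain of muscle and nerve basement membrane whose loss causes a congenital muscular dystrophy, was 8.14, 7.33 and 6.33 in Hlirag and 7.97, 8.13 and 7.85 in diabetic. The diabetic arrays lay within 0.29 log2 units of each other, and the Hlirag arrays spread over 1.82. Its log2 fold change was -0.72 (SE 0.43, 95% interval -1.72 to 0.29), and it was -1.16, at the criterion, without Hlirag replicate 1 and -0.25 without Hlirag replicate 3. Lamc1, the gamma chain of nearly all laminins, ranged from 7.56 to 9.38 with its lowest value on Hlirag replicate 3 (log2 fold change -0.58, 95% interval -1.56 to 0.41), and it too met the criterion without Hlirag replicate 1, at -0.96.

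Lama4, the alpha chain of vascular and fat cell basement membranes, was measured by 2 probe sets. Its log2 fold change was -0.21 on the brighter (values from 9.17 to 10.21) and -0.18 on the dimmer (8.48 to 9.59). Lama5, of endothelium and epithelium, ranged from 5.63 to 6.73 (-0.28), and Lamb2, the beta chain of vessel walls and synapses, from 7.93 to 9.32 (-0.18). Lamb3, a chain of epithelial laminin, was 4.22, 4.41 and 4.99 in Hlirag and 3.61, 4.08 and 4.09 in diabetic. Its groups did not overlap (log2 fold change 0.61, SE 0.28), and without Hlirag replicate 1 it met the criterion at 0.77, but all values were under the background level, and the highest was on Hlirag replicate 3, where the olfactory receptor median was 4.45 and elsewhere between 3.29 and 3.81. Lama1 and Lama3, chains of epithelial basement membranes, stayed at or under the background level, with highest values of 4.81 and 5.60. Lamc3, a chain found in nerve and other non-classical basement membranes, was 6.07 to 6.16 in Hlirag and 5.31 to 6.19 in diabetic.

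By array, the members were lowest on Hlirag replicate 3 in 16 of 31 genes (51.6%), where 36.2% of all genes had their lowest value, and highest on diabetic replicate 3 in 12 (38.7%), where 12.4% of all genes had their highest. Diabetic replicate 2 held the highest value of 11 members (35.5%), against 20.7% of all genes. Hlirag replicate 2 held the highest value of none, against 10.2% of all genes. The mean of 11 of the 31 members lay under the background level, against 47.4% of all genes. Hlirag replicate 3 had the narrowest spread (SD 1.52) and the highest olfactory receptor median (4.45). The shares of all genes were not limited to genes above the background level, and the part of brightness in these counts was not tested.

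Genes that work with integrins and laminins had no call higher in Hlirag. Of all genes only 1.62% were called higher, and 2.16% were called lower. Of 12 measured partners in the basement membrane 1 was lower at the criterion and none higher, with a median log2 fold change of -0.06. It was Ntn4, a netrin that binds laminin networks, with 6.30, 5.76 and 5.59 in Hlirag and 6.49, 6.93 and 6.68 in diabetic and a log2 fold change of -0.81 (SE 0.27). Of 25 further integrin ligands 1 was lower, Cdh1, the epithelial cadherin that white blood cell integrins of the Itgae type bind, with 4.65, 4.49 and 4.73 in Hlirag and 5.46, 5.88 and 5.85 in diabetic and a log2 fold change of -1.11 (SE 0.22). Only diabetic replicates 2 and 3 were above the background level.

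Among 28 proteins that link integrins to the cytoskeleton and to signals, 2 were lower and none higher, with a median log2 fold change of -0.29 and 22 of 28 below 0. Of all genes above the background level 71.5% were below 0, with a median of -0.19. Tln2, a talin of heart and skeletal muscle and of brain that switches integrins on, was 7.31, 6.82 and 6.66 in Hlirag and 7.503, 8.85 and 7.51 in diabetic, with a log2 fold change of -1.03 (SE 0.40). Ptk2b, a kinase related to the focal adhesion kinase, was 6.73, 6.33 and 5.91 in Hlirag and 7.04, 7.99 and 6.90 in diabetic, with a log2 fold change of -0.98 (SE 0.36). Both genes had groups that did not overlap, as 4.69% of all genes did with Hlirag lower. The groups of Bcar1, not at the criterion, did not overlap either, and it was highest on diabetic replicate 3, at 6.55. Like Itgb4, Tln2 and Ptk2b had their highest value on diabetic replicate 2. There the medians of the skeletal muscle and neuron markers were highest too, at 11.48 and 10.20. The part of those tissues was not tested.

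Dystroglycan is the other main laminin receptor of muscle and nerve, and it joins laminin to dystrophin. Of 14 measured genes of that complex and of the enzymes that glycosylate it none met the criterion, with 13 of 14 below 0 and a median log2 fold change of -0.38, beside the same 71.5% and -0.19 over genes above the background level. Sntb1, a syntrophin, had -0.93 (SE 0.48) and Sgcd, a sarcoglycan, -0.81 (SE 0.43). Each was highest on diabetic replicate 2, at 8.89 and 8.27, and Sgcd was lowest on Hlirag replicate 3, at 6.001, as Sntb1 was, at 6.37. The array on which they were highest is again that of the highest skeletal muscle and neuron marker medians, whose part was not tested.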

How the data were processed

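RNA of 6 samples was hybridized to Affymetrix Rat Gene ST whole-transcript arrays. The authors made the deposited log2 values with Expression Console. How signals were summarised, normalized and centred is not given in the sources used here. That the scale is log2 follows from the values' range, and array medians ran from 4.94 to 5.39. The table held 36685 probe sets, among them 18511 with a single gene symbol, 575 with more than 1 symbol and 17599 with none in the annotation used. Each of 18166 genes was represented by its brightest single-symbol probe set.

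Hlirag was set against diabetic with limma 3.58.1 (R 4.3.3, group as the only term) over all genes, with p-values adjusted by Benjamini and Hochberg, and was tested on simulated data. The criterion is that of the study, fold change above 1.5 with unadjusted p below 0.05, and the study's own test (the methods' test) was an alternative. With 3 arrays against 3, an exact permutation test cannot give a two-sided p below 0.1. Arrays have no read depth, and their number limits the precision.

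The members, lists and alternatives were chosen with earlier results of these data known. Values on all arrays are given for members at the criterion, without overlap, among the 8 lowest p or among the 4 widest ranges within a group, and other genes by range. From each list of partner genes, those at the criterion are named, or else the 2 with the lowest p.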

Additional observations from a re-analysis of the deposited data

How the results depend on the processing

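The calls of Itgb4 and Itga3 held when arrays were centred on their medians or quantile normalized and when dim genes were left out. They also held with an intensity trend in the variance and with probe sets of a gene averaged or all fitted. The same was true with the replicate block, values raised to the background level and the methods' test, where Itgb4 had an unadjusted p of 0.0496. No member passed an adjusted p under 0.05 in any of these. Lower members at the criterion numbered 2 with all arrays, 0 to 5 when arrays were left out (each in turn, or Hlirag replicate 3 with diabetic replicate 2) and 1, Itga5, without diabetic replicates 1 and 2. Both settings that leave out a pair of arrays were chosen after seeing the data. Higher members numbered 0, and 0 to 2 when arrays were left out. The median over the members ran from -0.45 to -0.041 when arrays were left out. All genes at the criterion numbered 687, and 226 to 2018 when arrays were left out, 286 without diabetic replicates 1 and 2, 236 by the methods' test (62.3% of them higher), 448 with the filter on dim genes (31.7% higher) and 181 raised to the background level. With the replicate number as a block all genes numbered 1117, with 1 member higher (Lamb3) and 3 lower (Itga4 added). The deviations of same-numbered arrays correlated at 0.32, 0.04 and 0.15. Arrays of unlike number were not correlated, so these values cannot decide whether the numbers mark pairs. The main fit did not take the numbers as pairs.

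The sign of some differences turned, among them those of Itga4 (-0.75 with all arrays) and Itgam (-0.58). Quantile normalization gave 0.11 for Itga7, -0.13 for Itgax, 0.063 for Itgb5 and -0.042 for Lama3, and median centring -0.11 for Itgax and -0.088 for Lama3. Without diabetic replicates 1 and 2, the log2 fold change was 0.31 for Itga2, -1.12 for Itga8, -1.31 for Itga9, 0.019 for Itgam, -0.21 for Itgax, 0.27 for Itgb7 and -0.062 for Lamc3. When arrays were left out, it ran from -0.39 to 0.30 for Itga1, -1.11 to 0.016 for Itga4, -0.17 to 0.092 for Itga7, -0.44 to 0.97 for Itga8, -0.46 to 1.08 for Itga9, -0.28 to 0.052 for Itgal, -0.88 to 0.13 for Itgam, -0.12 to 0.15 for Itgax, -0.37 to 0.30 for Itgb1, -0.48 to 0.037 for Itgb2, -0.51 to 0.40 for Itgb5, -0.35 to 0.16 for Itgb7, -0.12 to 0.18 for Lama3, -0.47 to 0.010 for Lama4 and -0.51 to 0.15 for Lamb2. The cause was not tested. For 11 members with a mean under the background level, signal over background limits what a difference can show.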
